A study of Juglans regia with 15 samples.

Results

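The endopleura color trait of common walnut (Juglans regia) was associated with a locus on chromosome 9, and the genes annotated to the associated variants at that locus are described here, without the anthocyanidin reductase gene JreChr09G12363 (JrANR) that the study singled out from them. The set was taken from the study's list of genes for the color trait, by identifiers on chromosome 9, and held 51 of the 39414 genes in the expression table. The members spanned 7218944 to 8287757 on chromosome 9 of the authors' own J. regia assembly, a stretch of 1069 kb, with 13 members before JrANR and 38 after it. Another 58 genes of the table lay between the outermost members and were not on the list. The list itself rests on genetic association in a panel of walnut trees and used no expression value, although earlier results of these data were known when it was chosen.

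Expression was measured by RNA-seq in endopleura, the papery skin around the walnut kernel, of the cultivar Linzaoxiang. The series ran over 5 stages, at 35 and 63 days after pollination (DAP) and then at 91, 119 and 147 DAP, with 3 libraries a stage, and each library pooled the skins of 7 nuts. No treatment or genotype was compared, and only 1 cultivar was sampled, so the values follow development and do not compare light and dark walnuts. The p-values of the stage comparisons given below measure the spread between pools of nuts. In such bulk tissue, fewer cells of a type and less RNA per cell cannot be told apart.

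Seed coats such as the endopleura color through flavonoids. Anthocyanidin reductase turns anthocyanidins into flavan-3-ols, which are joined into proanthocyanidins, the tannins that brown as they oxidise, and in Arabidopsis loss of this enzyme (the banyuls mutant) leaves anthocyanin in the young seed coat. A locus found by association usually holds many linked genes beside the causal one, and these may serve any function. At this locus they include a run of cysteine-rich receptor-like kinases, which carry the DUF26 domain outside the cell and a kinase domain inside it, and single genes for transport, protein turnover, the cell wall, the chloroplast and gene regulation.

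The 15 libraries were of like depth (0.855 to 1.16 of the median library, from the steps between low values), with FPKM values (fragments per kilobase of transcript, scaled to the mapped fragments of the library) summing to between 851621 and 1113620. The share of the sum taken by the 10 most abundant genes averaged 25.7% at 147 DAP and 6.94% at 35 DAP. Embryo RNA was followed by 4 genes that seeds express as they store protein and oil. The summed level of 3 of them, a pair of cupin storage protein genes and an oleosin gene, ran from 0.470 to 1.97 FPKM in the 35 DAP libraries, 1757 to 6550 at 63 DAP, 4768 to 9656 at 91 DAP, 3384 to 19297 at 119 DAP and 1697 to 3023 at 147 DAP. The fatty acid desaturase gene JreChr13G11197 ran from 4.55 to 21.4 FPKM at 35 DAP, from 111 to 591 FPKM at 63 to 119 DAP and from 11.3 to 26.3 FPKM at 147 DAP. The library with 19297 FPKM was replicate 2 of 119 DAP. The storage genes parted at the end. The oleosin gene JreChr12G10222 averaged 581 FPKM at 119 DAP and 1050 FPKM at 147 DAP. The cupin genes fell over that step, from 3736 to 749 FPKM and from 5272 to 407 FPKM on average. The 3 storage genes were thus nearly missing at 35 DAP and high in all 12 later libraries, and their part in the changes after 35 DAP was not tested. Whether embryo RNA was present at 35 DAP cannot be told from genes that were nearly missing then.

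JrANR itself, the gene against which the members are set, had 83.5, 71.0 and 72.6 FPKM at 35 DAP, 194, 187 and 189 at 63 DAP, 103, 110.2 and 109 at 91 DAP, 342, 181 and 344 at 119 DAP and 706, 1058 and 661 at 147 DAP. Its 147 DAP libraries stood above all others, and at 119 DAP replicate 2, the library with the highest storage signal, was the lowest of its stage.

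Most of the locus was transcribed in the endopleura, and 11 of its 19 unexpressed members were receptor-like kinases or DUF26 proteins. A gene counted as expressed, and was tested, when 3 or more libraries had 1 FPKM or more. By that rule 32 of the 51 members (62.7%) were expressed, against 56.6% of all genes in the table and 72.4% of the other 58 genes of the interval. Another 15 members (29.4%, against 16.3% of all genes) were listed above 0 somewhere without reaching the rule. The other 4 (7.84%, against 27.1% of all genes) were listed at 0 in all 15 libraries: the ZIP metal transporter JreChr09G12353, JreChr09G12360 with no annotation, the cysteine-rich repeat secretory protein JreChr09G12377 and the LYK8-like kinase JreChr09G12402. The median of the mean levels was 11.9 FPKM over the expressed members and 12.5 FPKM over all expressed genes.

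**Figure D1:**
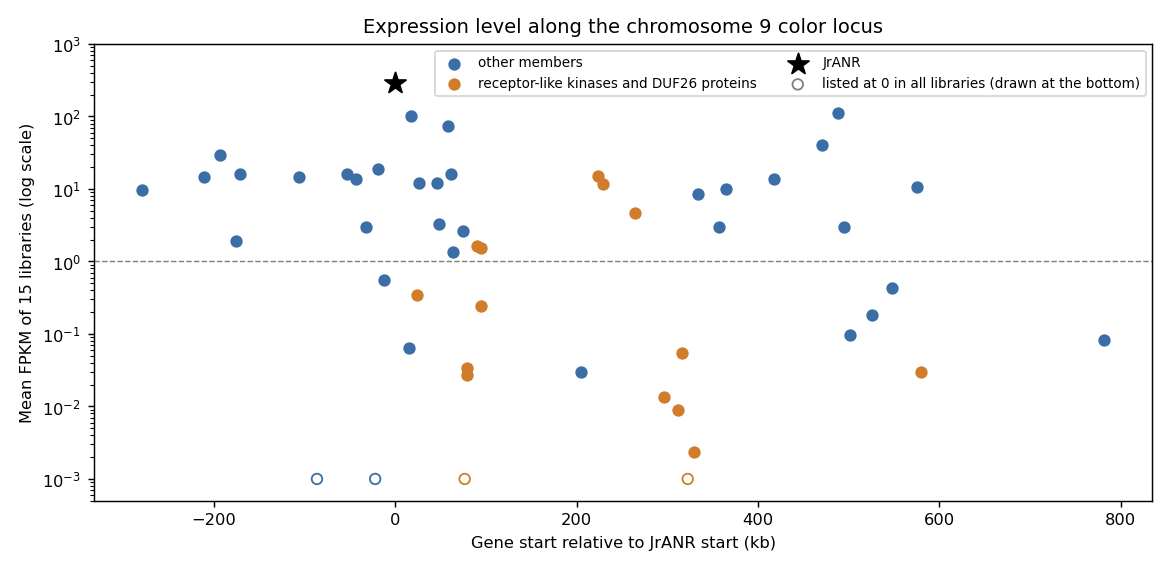
Mean FPKM of the 15 libraries (log scale) of each of the 51 members and of JrANR, against the distance of the gene's start from the start of JrANR in kb; open circles are the 4 members listed at 0 in all libraries, and the dashed line marks 1 FPKM. Before JrANR all but a few members lie above the line, whereas the receptor-like kinases and DUF26 proteins after it lie on both sides of it.

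Along the chromosome, 11 of the 13 members before JrANR and 21 of the 38 after it were expressed. The longest run of unexpressed members went from JreChr09G12399 to JreChr09G12404 (7795451 to 7830475, 35.0 kb). It held 5 receptor-like kinases in a row, of which the highest single value was 0.174 FPKM. JreChr09G12377 to JreChr09G12379 and JreChr09G12426 to JreChr09G12428 were each 3 unexpressed members in a row, and the last members of the locus, the leucine-rich repeat kinase JreChr09G12431 and the MATE transporter JreChr09G12454, were unexpressed as well. MATE proteins include the carrier of proanthocyanidin precursors in the Arabidopsis seed coat (TT12), but this MATE gene reached no more than 0.580 FPKM in any library.

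The unexpressed member nearest to the rule was the tryptophan synthase beta chain-like gene JreChr09G12428. It had 1.55, 2.09 and 0.837 FPKM at 63 DAP and at most 0.502 FPKM in every other library. The 2.09 FPKM was the highest value of any unexpressed member. Among the other unexpressed members were genes whose families are known from cell walls and epidermis: the COBRA-like gene JreChr09G12426 (COBRA proteins act in cellulose deposition) reached 0.319 FPKM, and the homeobox-START gene JreChr09G12427, whose Arabidopsis homolog PDF2 keeps epidermal identity, reached 0.580 FPKM.

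The DUF26 genes were the largest family at the locus. Of 13 members with this annotation, 5 were expressed, 7 were low and 1 was listed at 0. Of 12 genes annotated to DUF26 elsewhere in the study's lists, 1 was expressed and 5 were listed at 0. JreChr09G12393 and JreChr09G12395, which lie next to each other among the members, averaged 15.1 and 11.8 FPKM over the 15 libraries, and JreChr09G12397 averaged 4.63 FPKM. The next 3 DUF26 genes along the chromosome averaged 0.0549 FPKM or less.

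Kinase genes of this family can be near-identical in parts, and reads shared between copies could be split among them in the counting, so their levels are uncertain. The gene models of 4 members overlap those of other members. JreChr09G12378 and JreChr09G12379 start at the same base. JreChr09G12382 lies within JreChr09G12383, a model from 7593453 to 7692368 that also takes in JreChr09G12387, a gene off the list with up to 9.67 FPKM, so the 1.52 FPKM averaged by JreChr09G12383 may not be its own.

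At the upper end, 3 members had by far the highest mean levels. JreChr09G12423, an OST3/OST6 family protein (this family belongs to the oligosaccharyltransferase that attaches sugars to new proteins in the endoplasmic reticulum), averaged 112 FPKM. JreChr09G12365, the member next after JrANR among those expressed, averaged 103 FPKM. It is related to phosphosulfolactate synthase, and its Arabidopsis homolog HSA32 prolongs acquired heat tolerance. The thioredoxin JreChr09G12372 (thioredoxins reduce disulphide bonds of other proteins) averaged 74.1 FPKM. JrANR averaged 294 FPKM, above each of them.

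Nearly all expressed members changed during development, as most expressed genes of the walnut did. In limma's F test over the 5 stages, 30 of the 32 members (93.8%) passed an adjusted p of 0.05, against 81.2% of all 22310 tested genes. The highest and the lowest stage mean of a member differed by a median of 1.33 on the log2(FPKM + 1) scale, against 1.13 over all tested genes and 1.10 over the other tested genes of the interval. The DUF26 kinase JreChr09G12393 (adjusted p = 0.117 in limma) and the CRIPT-like gene JreChr09G12419 (adjusted p = 0.0792 in limma) did not pass. Both passed under quantile normalization and median-ratio scaling. JreChr09G12393 also passed without replicate 1 of 119 DAP (0.04999), and JreChr09G12419 without replicate 3 of 91 DAP (0.0207) or replicate 2 of 119 DAP (0.00984). The call of the glycosyltransferase JreChr09G12332 (adjusted p = 0.0374 in limma) was lost on leaving out any one of 7 libraries, among them all 3 of 35 DAP, with a highest adjusted p of 0.104 without replicate 1 of 147 DAP, and also under quantile normalization (0.244) and median-ratio scaling (0.118). The proteasome gene JreChr09G12376 lost its call under quantile normalization (0.0948) and the SNARE gene JreChr09G12361 under median-ratio scaling (0.0507). Those of JreChr09G12383 (adjusted p = 0.0582 in limma without replicate 2 of 63 DAP) and of the harpin-induced domain gene JreChr09G12408 (0.0502 without replicate 1 of 147 DAP) were lost without those libraries.

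**Figure D2:**
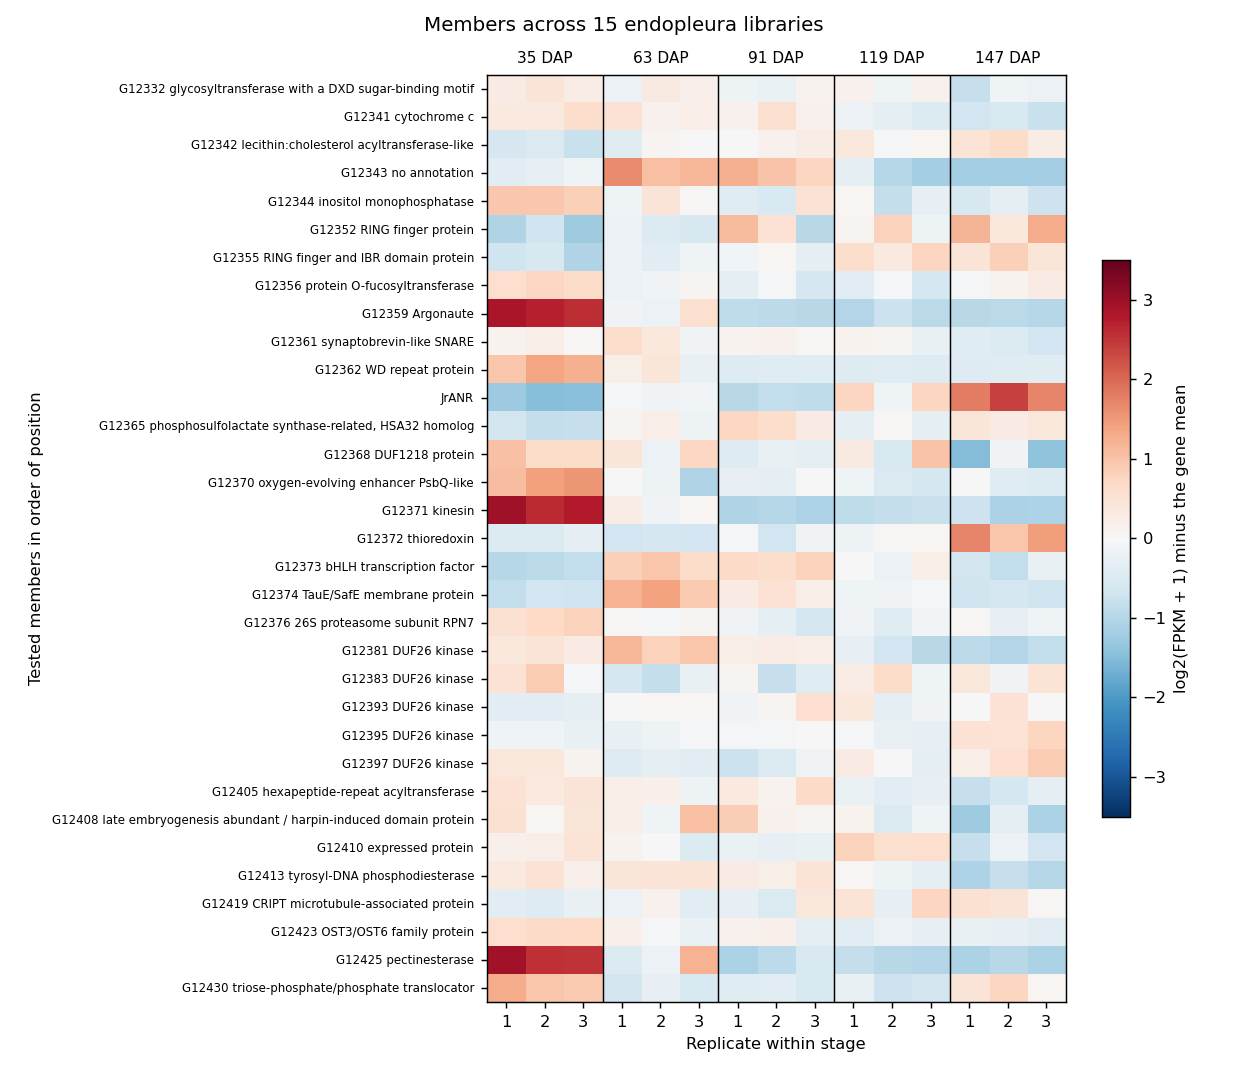
log2(FPKM + 1) of the 32 expressed members and JrANR minus each gene's mean, in 15 libraries (columns, by stage and replicate), with genes in order of position. Argonaute, kinesin and pectinesterase are darkest red in the 3 libraries of 35 DAP. JrANR and the thioredoxin are a paler red, strongest at 147 DAP, and the bHLH gene and its TauE/SafE neighbour are red at 63 and 91 DAP.

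Between the last and the first stage more members fell than rose. At 147 DAP, compared with 35 DAP, 28 of the 32 members passed limma's test, against 67.7% of all tested genes. Of the members, 8 were higher (25.0%, against 24.0% of all tested genes) and 20 were lower (62.5%, against 43.7%). The median log2 change was -0.76 over the members and -0.27 over all tested genes, so lower values at the last stage were common to the transcriptome. That general shift depended on the scaling: with quantile normalization it was 0.05, with median-ratio scaling -0.05 and with rescaling to equal sums (TPM) -0.53. The members then had medians of -0.39, -0.55 and -0.99, with 11 higher and 13 lower under quantile normalization, 10 and 17 under median-ratio scaling and 6 and 20 with TPM. Over all 22310 tested genes the counts were 7871 and 7647, 7076 and 8105, and 3977 and 11915 in the same order. Thus 45.8%, 37.0% and 23.1% of the called members were higher, against 50.7%, 46.6% and 25.0% of all called genes. Libraries of 147 DAP and 35 DAP did not overlap in 28 of the 32 members, against 75.2% of all tested genes.

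**Figure D3:**
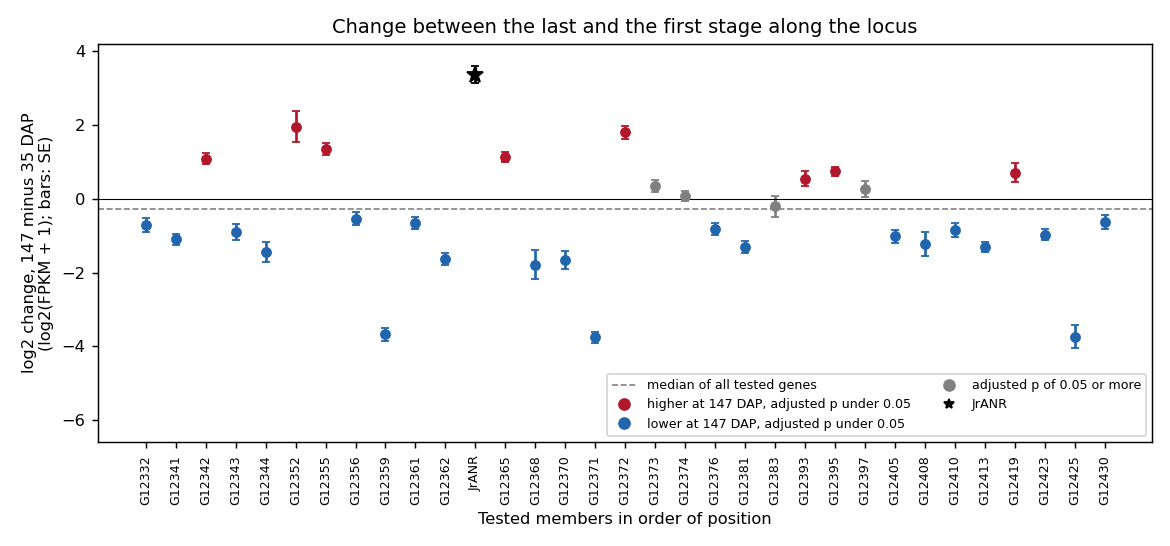
Log2 change of 147 minus 35 DAP, on log2(FPKM + 1), with its SE for each expressed member in order of position; colors show the side of an adjusted p of 0.05 in limma, the star is JrANR and the dashed line the median of all tested genes (-0.27). Members that rose and members that fell lie on both sides of JrANR, and no member rose by as much as the 3.37 of JrANR.

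The deepest falls were those of 3 genes that were high at 35 DAP and close to silent from 91 DAP on. The kinesin JreChr09G12371 (7547275 to 7554544) belongs to the motor proteins that move along microtubules, and its Arabidopsis homolog ATK1 works in the spindle of dividing cells. It had 16.5, 12.7 and 14.1 FPKM at 35 DAP, 1.66, 1.05 and 1.35 at 63 DAP, and 0.0303 to 0.335 FPKM in the 9 libraries after that. Every library of 35 DAP lay above every later one. The change of 147 over 35 DAP was -3.76 ± 0.15 (SE; adjusted p = 3.7e-11 in limma), and most of it was complete by 63 DAP (-2.71 ± 0.15 for 63 over 35 DAP).

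The Argonaute gene JreChr09G12359 (7466517 to 7474174) encodes a protein of the family that binds small RNAs and silences their targets. It had 14.6, 13.1 and 11.8 FPKM at 35 DAP and 0.986, 0.855 and 2.20 FPKM at 63 DAP. From 91 DAP on it stayed between 0.0681 and 0.278 FPKM. The change of 147 over 35 DAP was -3.68 ± 0.18 (SE; adjusted p = 3.06e-10 in limma), and the steps to 63 DAP (-2.63 ± 0.18) and on to 91 DAP (-1.003 ± 0.18) both passed the test.

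The pectinesterase JreChr09G12425 (7993540 to 7995459) is annotated as one of the enzymes that remove methyl groups from cell wall pectin. It had 15.3, 11.7 and 11.4 FPKM at 35 DAP, 0.543, 0.850 and 3.995 at 63 DAP, 0, 0.128 and 0.477 at 91 DAP, 0.199, 0.0853 and 0.0434 at 119 DAP and 0, 0.0895 and 0 at 147 DAP. The 35 DAP libraries were again the highest, while those of 63 DAP were uneven, with replicate 3 above the others. The change of 147 over 35 DAP was -3.74 ± 0.32 (SE; adjusted p = 1.23e-07 in limma).

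Their profiles recurred at lower level in JreChr09G12362, a WD repeat protein and the expressed member next before JrANR. It had 1.68, 2.57 and 2.25 FPKM at 35 DAP, and none of the 9 libraries from 91 DAP on exceeded 0.0339 FPKM. Its change of 147 over 35 DAP was -1.63 ± 0.16 (SE; adjusted p = 3.6e-07 in limma). JrANR thus lay between a neighbour that had gone nearly silent by 91 DAP and, on the other side, JreChr09G12365, which was at 120.2 to 161 FPKM at that stage.

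**Figure D4:**
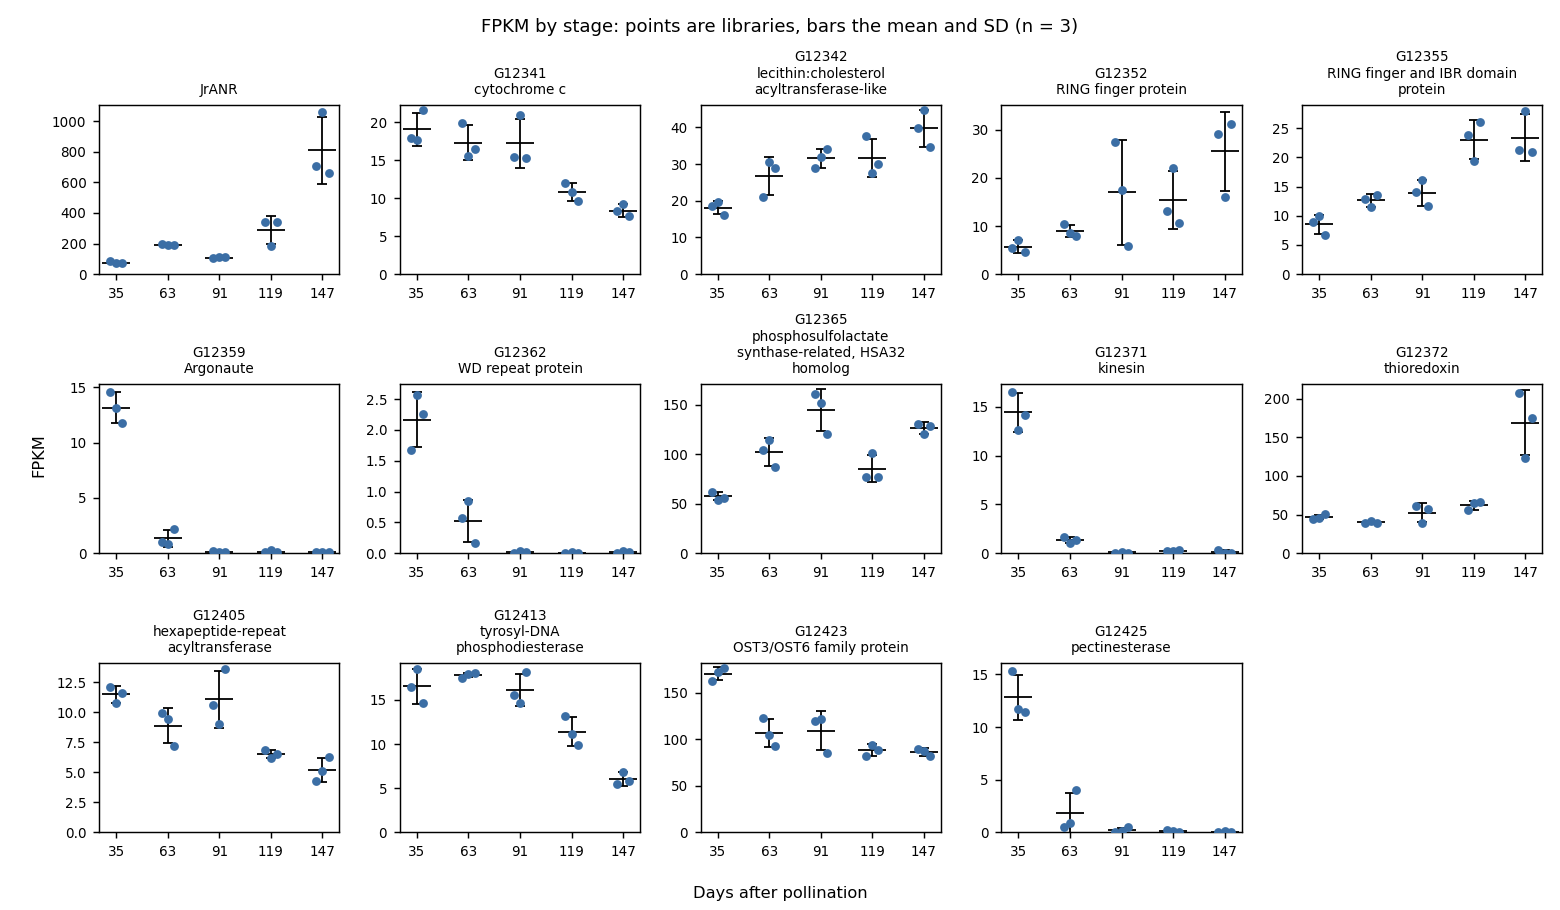
FPKM of JrANR and 13 members by days after pollination; points are the 3 libraries of a stage and bars the mean and SD, with a separate linear axis from 0 for each gene. The kinesin, Argonaute, pectinesterase and WD repeat genes are near 0 from 91 DAP on, whereas the thioredoxin is between 124 and 207 FPKM at 147 DAP and at most 66.5 FPKM before.

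By fold, the largest rises were those of both RING finger genes and the thioredoxin. RING fingers are the part of many ubiquitin ligases that brings the ubiquitin-loaded enzyme to its target. The RING finger gene JreChr09G12352 had 5.33, 7.18 and 4.57 FPKM at 35 DAP, 10.4, 8.501 and 8.01 at 63 DAP, 27.5, 17.6 and 5.79 at 91 DAP, 13.1, 22.1 and 10.7 at 119 DAP and 29.2, 16.1 and 31.3 at 147 DAP. The libraries of the last and first stage did not overlap, but those of 91 DAP were uneven, and no step between consecutive stages passed the test with all libraries. Without replicate 3 of 91 DAP the step of 91 over 63 DAP passed (1.22, against 0.63 with it; adjusted p = 0.0136 in limma). Its change of 147 over 35 DAP was 1.95 ± 0.42 (SE; adjusted p = 0.000866 in limma).

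The RING finger and IBR domain gene JreChr09G12355 had 8.88, 9.91 and 6.76 FPKM at 35 DAP, 12.9, 11.4 and 13.5 at 63 DAP, 14.04, 16.03 and 11.6 at 91 DAP, 23.8, 19.3 and 25.97 at 119 DAP and 21.2, 27.9 and 20.8 at 147 DAP. The libraries of 119 and 147 DAP overlapped with each other and lay above all earlier ones. The change of 147 over 35 DAP was 1.36 ± 0.17 (SE; adjusted p = 6.28e-06 in limma), and 119 over 91 DAP gave 0.69 ± 0.17 (adjusted p = 0.0128 in limma).

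The thioredoxin JreChr09G12372 (7556605 to 7557859) kept between 39.01 and 66.5 FPKM in the 12 libraries up to 119 DAP and had 207, 124 and 175 FPKM at 147 DAP. The libraries of the last stage lay above all earlier ones. The change of 147 over 119 DAP was 1.40 ± 0.18 (SE; adjusted p = 5.09e-05 in limma). JreChr09G12365 moved up and down instead. It had 61.8, 54.2 and 55.9 FPKM at 35 DAP, 104, 115 and 86.9 at 63 DAP, 161, 151 and 120.2 at 91 DAP, 77.4, 101 and 77.2 at 119 DAP and 131, 120.1 and 128 at 147 DAP. It passed the test at all 4 steps: 0.81, 0.49, -0.75 and 0.57 in order of stage (each ± 0.14 SE). The step of 91 over 63 DAP (adjusted p = 0.0179 in limma) was lost when replicate 3 of 63 DAP (0.0824) or replicate 1 or 2 of 91 DAP (0.0793 and 0.0692) was left out.

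At the first step, 63 over 35 DAP, 19 of the 32 members passed the test, against 46.7% of all tested genes. Of these, 7 were higher (21.9%, against 19.3% of all tested genes) and 12 lower (37.5%, against 27.4%). With TPM the counts were 5 and 14 (26.3% of the called members higher, against 29.1% of all called genes). At 91 over 63 DAP 7 passed, against 26.5% of all: 1 was higher (3.12%, against 7.59%) and 6 lower (18.8%, against 18.9%), and 3 each way under quantile normalization. At 119 over 91 DAP 10 passed, against 18.3%: 2 were higher (6.25%, against 9.65%) and 8 lower (25.0%, against 8.65%). At 147 over 119 DAP 11 passed, against 35.9%: 5 were higher (15.6%, against 14.1%) and 6 lower (18.8%, against 21.8%). Quantile normalization gave 6 and 4 (60.0% of the called members higher, against 47.8% of all called genes). Median-ratio scaling gave 7 and 5 (58.3%, against 49.0%). Of the expressed members 15 had their highest mean at 35 DAP (46.9%, against 40.2% of all tested genes). Another 7 peaked at 63 DAP (21.9%, against 3116 of the 22310 tested genes). Peaks at 91 DAP were found in 2 members (6.25%, against 15.3% of all tested genes) and at 119 DAP in 2 (6.25%, against 9.86%). The remaining 6 peaked at 147 DAP (18.8%, against 20.6% of all tested genes).

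The members with a peak at 63 DAP included 2 neighbours of known kinds, which start 61084 and 63881 bp after the start of JrANR. The bHLH transcription factor gene JreChr09G12373 (7559806 to 7561836), whose Arabidopsis homolog ILR3 takes part in iron homeostasis, had 6.58, 6.75 and 7.34 FPKM at 35 DAP, 25.6, 28.5 and 22.5 at 63 DAP, 23.1, 22.1 and 25.4 at 91 DAP, 13.9, 11.98 and 16.4 at 119 DAP and 8.57, 7.33 and 11.5 at 147 DAP. It rose by 63 DAP (1.75 ± 0.16 SE; adjusted p = 6.05e-07 in limma) and fell at both later steps from 91 DAP on (-0.71 and -0.59). The TauE/SafE membrane protein gene JreChr09G12374, of a family annotated as sulfite exporters, peaked at the same stage at lower level. It had 0.119, 0.286 and 0.275 FPKM at 35 DAP, 3.80, 4.401 and 2.88 at 63 DAP, 1.51, 1.91 and 1.36 at 91 DAP, 0.847, 0.879 and 1.01 at 119 DAP and 0.277, 0.337 and 0.276 at 147 DAP. Its change of 63 over 35 DAP was 1.93 ± 0.14 (SE; adjusted p = 7e-08 in limma). It fell already by 91 DAP (-0.85 ± 0.14 SE; adjusted p = 0.00058 in limma), whereas the bHLH gene stayed level over that step (-0.11; adjusted p = 0.675 in limma).

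These genes returned close to their first level, so the comparison of 147 with 35 DAP did not call either one, although quantile normalization called both (0.76 and 0.55) and median-ratio scaling the bHLH gene (0.57). Without replicate 2 of 147 DAP the bHLH gene was called too (0.47; adjusted p = 0.0203 in limma). JreChr09G12343, with no annotation, also peaked at 63 DAP, with 6.14, 3.73 and 4.07 FPKM. It was still at 2.82 to 4.42 FPKM at 91 DAP and was listed at 0 in all 3 libraries of 147 DAP, against 0.714, 0.861 and 1.05 FPKM at 35 DAP. Its step of 119 over 91 DAP was -1.83 ± 0.22 (SE; adjusted p = 9.06e-05 in limma).

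Within the receptor-like kinases, the 5 expressed genes had different profiles. JreChr09G12381 peaked at 63 DAP with 4.25, 3.07 and 3.61 FPKM and had 0.241, 0.152 and 0.286 FPKM at 147 DAP, against 2.06, 2.23 and 1.86 FPKM at 35 DAP. It fell (-1.31 ± 0.16 SE for 147 over 35 DAP; adjusted p = 5.95e-06 in limma). JreChr09G12395 was flat up to 119 DAP, with 9.25 to 11.6 FPKM in 12 libraries, and had 16.5, 16.3 and 19.9 FPKM at 147 DAP. Its last step was 0.76 ± 0.12 (SE; adjusted p = 0.000247 in limma).

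JreChr09G12397 had 5.23, 7.03 and 8.86 FPKM at 147 DAP, against 6.08, 5.91 and 4.85 FPKM at 35 DAP, and lay lower in between, with 2.93 to 3.23 FPKM at 63 DAP. The libraries of the last and first stage overlapped, and the comparison of these stages was called only under quantile normalization (0.74) and median-ratio scaling (0.49). Its step of 63 over 35 DAP (-0.68 ± 0.21 SE; adjusted p = 0.0153 in limma) was lost without replicate 1 of 35 DAP (0.0563). JreChr09G12393 was higher at 147 than at 35 DAP by 0.54 ± 0.21 (SE; adjusted p = 0.0311 in limma), a call that any 1 of the 3 libraries of 35 DAP or replicate 2 of 147 DAP removed when left out (0.0559 to 0.144) and that was also lost with TPM (0.27; adjusted p = 0.310 in limma).

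The 4 genes grouped under the chloroplast and redox reactions were all expressed, against 56.6% of all genes, and split in direction. The HSA32 homolog JreChr09G12365 was put in this group although the role given for it above is neither of these. From 35 to 147 DAP it and the thioredoxin were called higher, and the other pair lower. JreChr09G12370, related to PsbQ of the oxygen-evolving complex of photosystem II, had 10.2, 7.38 and 7.09 FPKM at 147 DAP, against 22.6, 29.4 and 31.8 FPKM at 35 DAP, with most of the fall complete by 63 DAP (-1.76 ± 0.24 SE; adjusted p = 3.83e-05 in limma). The cytochrome c gene JreChr09G12341, whose Arabidopsis homolog is a chloroplast cytochrome, had 17.9, 17.7 and 21.6 FPKM at 35 DAP, 19.98, 15.5 and 16.5 at 63 DAP, 15.4, 20.97 and 15.4 at 91 DAP, 12.01, 10.9 and 9.63 at 119 DAP and 8.31, 9.25 and 7.60 at 147 DAP. Its libraries of 119 and 147 DAP, none above 12.01 FPKM, lay below all 9 earlier ones (-1.10 ± 0.15 SE for 147 over 35 DAP; adjusted p = 1.61e-05 in limma).

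Of 5 expressed metabolic genes 4 fell and 1 rose between 35 and 147 DAP, where 43.7% of all tested genes fell and 24.0% rose. The riser was JreChr09G12342, a lecithin:cholesterol acyltransferase-like gene of lipid metabolism, with 18.4, 19.6 and 16.1 FPKM at 35 DAP, 20.9, 30.5 and 28.96 at 63 DAP, 28.9, 31.8 and 33.997 at 91 DAP, 37.5, 27.5 and 29.9 at 119 DAP and 39.9, 44.7 and 34.6 at 147 DAP. Every library after 35 DAP lay above those of 35 DAP (1.09 ± 0.16 SE for 147 over 35 DAP; adjusted p = 2.39e-05 in limma). The inositol monophosphatase JreChr09G12344 averaged 10.1 ± 1.63 FPKM at 147 DAP and 28.8 ± 1.37 FPKM at 35 DAP (SD, n = 3 each), a change of -1.43 ± 0.27 (SE). The hexapeptide-repeat acyltransferase JreChr09G12405, the glycosyltransferase JreChr09G12332 and the protein O-fucosyltransferase JreChr09G12356 fell by 1.02, 0.72 and 0.53 on the log2 scale. The call of the O-fucosyltransferase (adjusted p = 0.0146 in limma) was lost without replicate 1 of 147 DAP (0.0611), under quantile normalization (-0.29; 0.178) and under median-ratio scaling (-0.29; 0.202), and that of the glycosyltransferase under quantile normalization (0.0534).

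Both genes of the secretory pathway were expressed and lower at 147 than at 35 DAP, as were 43.7% of all tested genes. JreChr09G12423, the OST3/OST6 protein, had 163, 172 and 176 FPKM at 35 DAP, 123, 105 and 92.6 at 63 DAP, 120, 122 and 84.9 at 91 DAP, 81.6, 93.9 and 88.8 at 119 DAP and 89.6, 87.6 and 81.9 at 147 DAP. The 35 DAP libraries stood above all later ones (-0.97 ± 0.14 SE for 147 over 35 DAP; adjusted p = 2.19e-05 in limma). The drop fell mainly between 35 and 63 DAP. The synaptobrevin-like SNARE JreChr09G12361, whose Arabidopsis homolog SEC22 serves vesicles between endoplasmic reticulum and Golgi, changed less (-0.65 ± 0.17 SE), and its call was lost under quantile normalization and median-ratio scaling.

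The remaining groups held few expressed genes. JreChr09G12430, a phosphate translocator whose Arabidopsis homolog GPT2 carries glucose phosphate into plastids, had 24.7, 19.4 and 18.8 FPKM at 35 DAP, then 5.30 to 7.66 FPKM in the 9 libraries of 63 to 119 DAP, and 13.2, 16.7 and 9.93 FPKM at 147 DAP. It was thus lowest in the middle stages, with steps of -1.56 ± 0.19 by 63 DAP and 0.97 ± 0.19 by 147 DAP (SE; adjusted p = 1.03e-05 and 0.00119 in limma). The proteasome subunit gene JreChr09G12376 (RPN7) fell by 0.81 on the log2 scale, but not under quantile normalization (-0.22; adjusted p = 0.281 in limma).

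Among genes of the cytoskeleton and the genome, JreChr09G12413 encodes a tyrosyl-DNA phosphodiesterase, a repair enzyme that frees DNA from trapped topoisomerase. It had 5.44, 6.88 and 5.80 FPKM at 147 DAP, against 16.5, 18.5 and 14.6 FPKM at 35 DAP, stayed at 14.6 FPKM or more up to 91 DAP and had 13.1, 11.2 and 9.90 FPKM at 119 DAP. The fall came late, with -0.81 ± 0.14 at 147 over 119 DAP (SE; adjusted p = 0.000452 in limma). The CRIPT-like gene JreChr09G12419 had 57.4, 53.4 and 40.2 FPKM at 147 DAP, against 29.4, 28.3 and 32.5 FPKM at 35 DAP (0.71 ± 0.26 SE; adjusted p = 0.0276 in limma). Leaving out replicate 1 or 2 of either stage removed that call (0.0648 to 0.0929), as did TPM (0.43; adjusted p = 0.162 in limma).

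The 5 expressed genes without a described function were each called lower at 147 than at 35 DAP, as were 43.7% of all tested genes. Besides JreChr09G12343 and JreChr09G12362 these were the DUF1218 gene JreChr09G12368 (-1.79 ± 0.39 SE), JreChr09G12408 (-1.24 ± 0.33 SE) and JreChr09G12410 (-0.84 ± 0.18 SE). The calls of JreChr09G12343 and JreChr09G12408 were lost under quantile normalization. In JreChr09G12410 the 119 DAP libraries were the highest, at 17.3, 14.6 and 14.9 FPKM, followed by 5.07, 8.17 and 5.63 FPKM at 147 DAP. The rise to 119 DAP (0.92 ± 0.18 SE) and the fall after it (-1.21 ± 0.18 SE) both passed the test (adjusted p = 0.00334 and 0.000175 in limma).

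The relation of each member to JrANR was examined over the 15 libraries. As these come in 5 stages of 3, the correlation mostly compares stages. The permutation test shuffled all 15 libraries across stages as if each were independent, so its p-values can be too small. In log2(FPKM + 1), 18 of the 32 members correlated with JrANR, against 42.9% of all other tested genes: 6 positively (18.8%, against 15.6% of all other tested genes) and 12 negatively (37.5%, against 27.3%) at an adjusted p of 0.05 in a permutation test, and the median r was -0.45, against -0.23 over all tested genes. Under quantile normalization the counts were 8 and 8, and with TPM 3 and 10. Over the other 22309 tested genes they moved as well, from 3482 and 6090 to 4509 and 4875 under quantile normalization. With TPM they were 2586 and 6801. With rank correlation 8 members passed, against 27.8% of all genes (25.0% of the members).

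The closest positive relation was that of the RING finger and IBR domain gene JreChr09G12355, with r = 0.85 and rho = 0.84 (permutation p = 2e-05 and 0.00022; adjusted p = 0.00108 and 0.00713). Without the pair of libraries farthest from the JrANR median, replicates 1 and 2 of 147 DAP, r was 0.81. The thioredoxin JreChr09G12372 (r = 0.78; permutation p = 0.00094, adjusted p = 0.00616) and the lipid gene JreChr09G12342 (r = 0.77; permutation p = 0.00098, adjusted p = 0.00633) followed, with r of 0.64 and 0.65 without those libraries. For the thioredoxin, rho was 0.49 and did not pass (permutation p = 0.0655, adjusted p = 0.145), and for JreChr09G12342 it was 0.77 (permutation p = 0.0013, adjusted p = 0.013).

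The lowest values were those of the acyltransferase JreChr09G12405 (r = -0.88, rho = -0.84), the cytochrome c gene JreChr09G12341 (r = -0.86, rho = -0.73) and the phosphodiesterase JreChr09G12413 (r = -0.85, rho = -0.68). For JreChr09G12405 the permutation p of r was 1e-05, the smallest that 100000 permutations can give, and the adjusted p was 0.000992. JreChr09G12341 and JreChr09G12413 had permutation p of 0.00014 and 0.00022, adjusted to 0.00219 and 0.00273. Leaving out the same pair of libraries gave r of -0.81, -0.82 and -0.75. JreChr09G12405 itself had 12.1, 10.8 and 11.6 FPKM at 35 DAP, 9.93, 9.49 and 7.21 at 63 DAP, 10.6, 9.004 and 13.7 at 91 DAP, 6.90, 6.20 and 6.57 at 119 DAP and 4.25, 5.10 and 6.29 at 147 DAP, so that the libraries of the last 2 stages lay below all earlier ones.

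The number of such relations depended on the libraries used, over all genes as well as over the members. Without 1 library of 147 DAP 11, 17 and 10 members passed in place of 18 (replicates 1, 2 and 3 left out; 30.4%, 36.7% and 30.7% of all tested genes), and without any 1 library of 35 DAP 12 (33.0% or more of all tested genes). Leaving out a whole stage gave 12 members without 35 DAP (30.2% of all tested genes), 13 without 63 DAP (36.7%), 23 without 91 DAP (52.6%), 14 without 119 DAP (36.1%) and 2 without 147 DAP (5.19%): JreChr09G12355 (r = 0.84; adjusted p = 0.0313 by permutation) and JreChr09G12423 (r = -0.80; adjusted p = 0.0446 by permutation). In those 12 libraries r was 0.25 for the thioredoxin, 0.62 for JreChr09G12342, -0.79 for JreChr09G12405, -0.71 for JreChr09G12341 and -0.52 for JreChr09G12413. For JreChr09G12395, which rose at the last stage only, r was 0.72 over all libraries and -0.19 without 147 DAP.

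**Figure D5:**
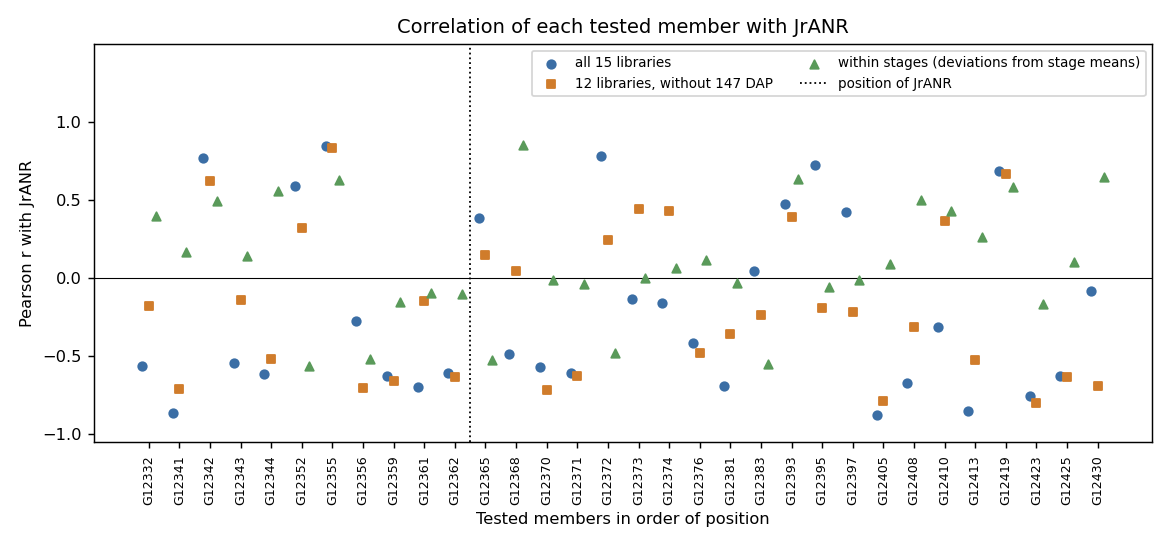
Pearson r with JrANR, on log2(FPKM + 1), of each expressed member in order of position, over all 15 libraries (circles), over 12 libraries without 147 DAP (squares) and within stages, from deviations from the stage means (triangles). The 3 values lie close together for JreChr09G12355 and JreChr09G12419, whereas the circle and the square of the thioredoxin lie at 0.78 and 0.25 and its triangle at -0.48.

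Within stages, where the stage means were taken off first, no gene of the table passed an adjusted p of 0.05 in the exact permutation test. At an unadjusted p of 0.05, 3 of the 32 members passed (9.38%), against 3622 (16.2%) of all tested genes. These were the DUF1218 gene JreChr09G12368 (r = 0.85; exact permutation p = 0.0081), the RING finger gene JreChr09G12352 (r = -0.56; exact permutation p = 0.0206) and JreChr09G12383 (r = -0.55; exact permutation p = 0.0482). The first 2 went against their own r over all libraries, which was -0.49 and 0.59. In 13 of the 32 members the sign of r was the same within stages and over all libraries, and in 9 of the 18 members called over all libraries.

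Members that lie side by side were compared as well. In 19 pairs of expressed members, JrANR included, no other expressed gene lay between, and their median r was 0.21, against 0.13 over 22294 such pairs in the whole table. Of these, 3 pairs (15.8%, against 8.09%) exceeded 0.8, while 4 (21.1%, against 14.6%) lay below -0.5. Such r across 15 libraries of 5 stages are given as a description. The highest was that of the bHLH gene and its TauE/SafE neighbour (0.91), followed by the PsbQ-like gene JreChr09G12370 and the kinesin JreChr09G12371 (0.87) and by JreChr09G12356 and the Argonaute gene JreChr09G12359 (0.80). The lowest was that of JreChr09G12365 and the DUF1218 gene JreChr09G12368 (-0.75). The neighbours of JrANR had -0.61 (JreChr09G12362) and 0.39 (JreChr09G12365) with it.

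For comparison with the families named above, genes listed for other traits or annotated to flavonoid synthesis were taken from the study's gene lists. These lists do not hold the whole families of the genome. Of 9 listed genes annotated to flavonoid synthesis outside the locus, 5 were expressed (55.6%, against 56.6% of all genes). Of these, 4 were called higher at 147 than at 35 DAP, none was called lower, and 3 correlated positively with JrANR. The shares over all tested genes were 24.0%, 43.7% and 15.6%. The expressed gene that was not called, JreChr03G12442, averaged 8.95 FPKM at 35 DAP and 4.02 FPKM at 147 DAP (-0.87 ± 0.38 SE; adjusted p = 0.0575 in limma). The most abundant of the flavonoid genes, JreChr02G10304, averaged 781 ± 272 FPKM at 147 DAP and 53.3 ± 9.18 FPKM at 35 DAP (SD, n = 3 each), with r = 0.96 (adjusted p = 0.000992 by permutation). Of 7 MATE genes listed elsewhere, 5 were expressed (71.4%, against 56.6% of all genes), and 2 were unexpressed like the MATE gene at the locus. Between 35 and 147 DAP 3 of the 5 rose and 2 fell, where 24.0% and 43.7% of all tested genes did. The single expressed gene among the DUF26 genes listed elsewhere, JreChr13G10073, averaged 3.26 ± 1.10 FPKM at 147 DAP and 0.162 ± 0.168 FPKM at 35 DAP (SD, n = 3 each). Its r with JrANR was 0.88 (adjusted p = 0.00108 by permutation), while among the 5 expressed DUF26 genes of the locus r was between -0.69 and 0.72.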

How the data were processed

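RNA-seq libraries of walnut endopleura (15 libraries, 5 stages with 3 each) were grouped by the stage in their labels. Reads were mapped by the authors to a J. regia assembly of theirs with HISAT2 2.1.0 and quantified with StringTie 1.3.5, and they deposited FPKM values for 39414 genes, with no further scaling between libraries stated. Read totals are not given in the sources used here, so counting error is unknown, and relative depth came from the ratios of values under 0.1 FPKM. All sample columns were used (0 columns of no sample). Coordinates and functions are those of the authors' assembly and gene lists; the study's association values were not used. No sequences of these gene models were at hand, and none are shown.

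From the deposited FPKM, log2(FPKM + 1) was tested with limma 3.58.1 in R 4.3.3 (1 coefficient per stage, eBayes with trend) for 22310 genes that reached 1 FPKM in 3 or more libraries. P-values were adjusted over all of them (Benjamini-Hochberg, threshold 0.05). Changes on this scale understate those of low genes. Correlation with JrANR was tested with 100000 two-sided permutations, and within stages with all 7776 exact rearrangements, adjusted over the other 22309 genes (Python 3.11.15, numpy 2.4.6, pandas 2.3.3, matplotlib 3.10.9). The scripts were tested on simulated data. Members, gene lists and tests were chosen with earlier results of these data known. The members described in most detail, with library values or their ranges, were the 3 largest rises and falls between 147 and 35 DAP, the 3 highest and lowest r with JrANR, the 3 highest mean FPKM and the expressed members on each side of JrANR; further members were named by function group. Alternatives were a pseudocount of 0.1, quantile, median-ratio and TPM scaling, no filter, a mean FPKM of at least 5, the replicate number as a block, each library left out and, chosen after seeing the data, all libraries of each stage left out.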

Additional observations from a re-analysis of the deposited data

How the results depend on the processing

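The change of 147 over 35 DAP was recomputed for 13 members, picked mostly for extreme values in these same data. For 6 of them the correlation with JrANR was recomputed as well. Of the 444 values, 438 kept their direction and side of the threshold. The other 6 were correlations that no longer passed, 5 without the 147 DAP libraries and that of JreChr09G12342 without those of 35 DAP, and none changed sign. Leaving out a library of a stage other than 35 or 147 DAP cannot alter the size of the change. The count therefore does not measure how stable the locus is. Outside these 13, the 147 over 35 DAP calls of JreChr09G12393 and JreChr09G12419 were each lost under 5 alternatives. Between consecutive stages these 13 members had 21 calls, of which 8 were lost under 1 or more alternatives. When only genes averaging 5 FPKM or more were tested, which are fewer, 21 members remained. Of these, 19 changed over the stages, 9 at 63 over 35 DAP and 1 at 91 over 63 DAP. With JrANR 11 of the 21 correlated, against 42.5% of all other genes tested then. Without the libraries of 147 DAP 2 members correlated with JrANR. With no filter the median range over stages was 1.02. Leaving out each library in turn gave 28 to 31 members changed over the stages, 16 to 19 at 63 over 35 DAP, 5 to 8 at 91 over 63 DAP, 8 to 10 at 119 over 91 DAP, 8 to 12 at 147 over 119 DAP, 26 to 28 at 147 over 35 DAP, 10 to 20 correlated with JrANR, 31 to 32 expressed members, and a median range of 1.28 to 1.45.

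Replicate numbers did not pair the libraries: of 30 pairs of same-numbered libraries 10 had deviations from the stage means correlated above 0.1 (range -0.40 to 0.41). With the replicate number as a block, 30 members changed over the stages, 19, 7, 9 and 11 at the steps in order of stage, and 28 at 147 over 35 DAP, while 12 correlated with JrANR in place of 18. Over all other tested genes the share that correlated fell as well, to 34.8% from 42.9%. The absolute depth is unknown, so values below 1 FPKM carry an unknown counting error, and with 3 libraries a stage an exact test of a single gene between 2 stages cannot go below p = 0.1.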
